A study of Mus musculus with 11 samples.

Results

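Peaks of open chromatin at Npas4 and at its target gene Bdnf were examined in 11 ATAC-seq peak lists from mouse dentate gyrus, the granule neuron field of the hippocampus. In ATAC-seq a transposase cuts into accessible DNA and leaves sequencing adapters there, and places with many such cuts are called as peaks. Peaks were taken, in mm9 coordinates, within 50 kb of the Npas4 start (chromosome 19, 4.990 Mb, minus strand) and from 109.465 to 109.617 Mb of chromosome 2, which holds Bdnf (109.515 to 109.567 Mb, plus strand). Peaks of different libraries were joined into 1 region where they overlapped by 1 bp or more. This gave 24 regions, 9 around Npas4 and 15 around Bdnf, of 128823 in the genome, and they held 142 of 497658 peaks.

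The mice were C57BL/6, 8 weeks old, and all carried an AAV in the dentate gyrus, either with a control shRNA (shRNA-Ctrl) or with an shRNA against the AP-1 subunit c-Fos (shRNA-cFos). The labels give the states E0, whose lists are named as sham, and E1, in a study of neuronal activation, and do not say what E1 stands for in treatment or time. With 1 mouse per library, there were 3 libraries each for E0 and E1 of shRNA-Ctrl, 3 for E0 of shRNA-cFos and 2 for its E1. The dissected tissue holds several cell types, so more cells with an open site and a more open site per cell cannot be told apart, and the lists do not show how far c-Fos was reduced. Read depth is unknown. The lists held 25145 to 78349 peaks, and length went with state. E1 lists held 35474 to 78349 peaks, and E0 lists 25145 to 33134 apart from the longest, shRNA-cFos E0 replicate 2 (74432 peaks). That longest E0 list and 2 long E1 lists (shRNA-Ctrl E1 replicates 1 and 3) stood apart from the rest in length. The names of those 2 E1 lists also lack a word that the other 9 carry. Values are therefore also given for lists shortened to their 25145 highest-scoring peaks.

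NPAS4 is a basic helix-loop-helix PAS transcription factor of neurons whose gene responds rapidly to calcium entry at active synapses. Bdnf encodes brain-derived neurotrophic factor, a secreted ligand of the TrkB receptor that acts on synapse growth and plasticity, and it is a known NPAS4 target. Bdnf has several promoters, each joined to its own first exon and then spliced to a shared coding exon, and the promoter conventionally numbered IV is a classic example of control by neuronal activity through CREB and other factors.

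RefSeq promoter sequences (build GRCm38.p6) were at hand for 1 Npas4 start and 7 Bdnf starts. The Bdnf starts lay 0, 2.33, 17.7, 18.3, 19.7, 34.7 and 48.2 kb after the first. Of these, 3 promoters are printed, each as the 250 bases before the start. They are those of Npas4 and of the first start in the outer and in the inner group of Bdnf starts. No peak reached the first Bdnf start as rounded in mm9. The nearest after it began at 0.279 kb, in shRNA-Ctrl E1 replicate 3. Capitals mark exact matches, on either strand, to TGACG, a 5-base part of the cAMP response element bound by CREB, or to TCGTG, the core recognised by NPAS4 dimers. These matches do not overlap one another. The positions are chr19:4989972-4990221 (minus strand) for Npas4, chr2:109674450-109674699 (plus strand) for the first Bdnf promoter and chr2:109692186-109692435 (plus strand) for the third.
Npas4 promoter: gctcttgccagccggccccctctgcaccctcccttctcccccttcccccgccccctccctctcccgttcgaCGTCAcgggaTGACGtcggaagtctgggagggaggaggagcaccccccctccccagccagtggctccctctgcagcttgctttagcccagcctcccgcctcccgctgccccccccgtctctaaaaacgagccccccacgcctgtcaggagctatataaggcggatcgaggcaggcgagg
Bdnf promoter 1: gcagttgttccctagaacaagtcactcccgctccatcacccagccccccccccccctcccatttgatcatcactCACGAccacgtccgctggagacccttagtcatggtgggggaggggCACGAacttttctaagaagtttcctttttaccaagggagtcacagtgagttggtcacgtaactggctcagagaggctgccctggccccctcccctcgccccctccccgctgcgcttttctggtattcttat
Bdnf promoter 3: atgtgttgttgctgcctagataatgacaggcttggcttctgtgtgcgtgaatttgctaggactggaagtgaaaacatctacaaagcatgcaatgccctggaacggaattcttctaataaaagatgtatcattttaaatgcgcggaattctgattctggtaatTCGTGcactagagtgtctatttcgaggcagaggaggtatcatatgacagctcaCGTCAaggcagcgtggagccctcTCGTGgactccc
The Npas4 promoter held 2 matches to TGACG, at bases -179 and -169 from the start, one on each strand. Bdnf promoter 1 held 2 matches to TCGTG, at -176 and -131, both on the reverse strand. Bdnf promoter 3, the one conventionally numbered IV, held 1 match to TGACG at -35 and 2 to TCGTG at -88 and -12. Bdnf promoters 2, 4, 5, 6 and 7, which are not printed, held no match to either, so the printed promoters are those with matches. Among 32851 mouse promoters of the same length, 17.8% held TGACG and 13.3% held TCGTG, so matches this short are common. Of the other motifs searched, the AP-1 motif TGANTCA, where N is any base (in 6.75% of all promoters), was found once. This was in the second Bdnf promoter at -152, with the letters TGAATCA, so it matched with A at the free base. The full cAMP response element TGACGTCA (1.55%), which contains TGACG on both strands, and the EGR motif GCGNGGGCG (4.70%) matched in none of the 8 promoters, which says only that these letters are not in these windows. The peak lists are in mm9, and no position was carried from one build to the other.

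At the Npas4 start, open chromatin was called in every E1 library and in few E0 libraries. The region over the start (mm9 chr19:4989387-4990516, 1130 bp) was covered by peaks over 0, 369 and 0 bp in the 3 E0 libraries and over 419, 674 and 678 bp in the 3 E1 libraries with shRNA-Ctrl. In mice with shRNA-cFos it was covered over 0, 594 and 0 bp at E0 and over 1130 and 957 bp at E1. The groups did not overlap within either shRNA background, but the 594 bp of shRNA-cFos E0 replicate 2, the longest E0 list, exceeded the 419 bp of shRNA-Ctrl E1 replicate 1. How many other regions or windows in the genome show such non-overlap was not counted, here or for the regions and windows below. Peaks were present in 5 of 5 E1 and 2 of 6 E0 libraries, the same as in the shortened lists, in which every covered length at this region was also unchanged.

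The mean covered length at the Npas4 start in shRNA-Ctrl was 123 ± 213 bp (SD, n = 3) at E0 and 590 ± 148 bp (n = 3) at E1. In shRNA-cFos they were 198 ± 343 bp (n = 3) at E0 and 1044 ± 122 bp (n = 2) at E1. Averaged over both shRNA groups, E1 covered 656 bp more than E0 (817 against 160.5 bp; two-sided exact permutation of E0 and E1 labels within shRNA groups, p = 0.015). Adjusted over all 128823 regions by the Benjamini-Hochberg method the permutation p was 0.358, so the difference did not pass the genome-wide test. At an unadjusted permutation p under 0.05, 7.62% of all regions were longer at E1. Presence or absence of a peak at the start gave an exact permutation p of 0.08. The E1 effect was 378 bp larger in shRNA-cFos than in shRNA-Ctrl, which did not pass a permutation of the shRNA labels (exact permutation p = 0.3; 0.710% of all regions had such a difference at an unadjusted p under 0.05).

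The added length at E1 lay on both sides of the Npas4 start. The half-kilobase bin just before the start, counted as covered when peaks filled at least 50% of its 500 bp, was covered in 5 of 5 E1 and 2 of 6 E0 libraries. The bin just after the start, inside the gene, was covered in 4 of 5 E1 and 0 of 6 E0 libraries. Of 160380 bins in the genome covered in any library, 2.94% were covered in all 5 E1 and at most 2 E0 libraries, and 1.88% in at least 4 E1 and no E0 library (0.728% in all 5 and none). The start used here is rounded to the kilobase by its source, so distances near it carry that rounding.

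**Figure D1:**
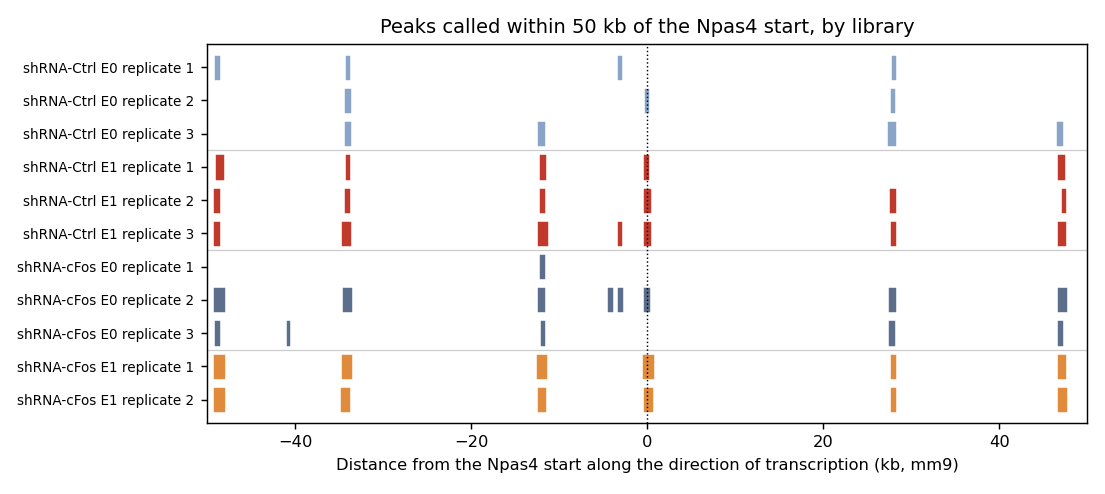
Peaks around Npas4 in each of the 11 libraries. The horizontal axis gives the distance in kb from the Npas4 start along the direction of transcription (mm9), each bar is 1 deposited peak, and colours mark the 4 groups. At the dotted line, which marks the start, all 5 E1 libraries and 2 of 6 E0 libraries have a peak.

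Around Npas4, 5 further regions were called in at least 6 of 11 libraries. Open chromatin 12 kb before the start (chr19:5001430-5002490) was covered over 0, 0 and 737 bp at E0 with shRNA-Ctrl, and over 490, 378 and 998 bp at E1. In shRNA-cFos the covered lengths there were 472, 692 and 369 bp at E0 and 982 and 852 bp at E1. Groups overlapped in shRNA-Ctrl and not in shRNA-cFos, and the difference of 391 bp had an exact permutation p of 0.045 (adjusted 0.581), which was 0.05 in the shortened lists and 0.275 without the 2 lists that lack the added word. With 1 library left out it was under 0.05 only without shRNA-Ctrl E0 replicate 3, and at most 0.12 otherwise.

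The region 48.6 kb before the start (chr19:5038026-5039185) was covered over 476, 0 and 0 bp at E0 and over 622, 521 and 506 bp at E1 with shRNA-Ctrl. With shRNA-cFos the lengths were 0, 1124 and 462 bp at E0 and 1160 and 1143 bp at E1. Both E1 groups lay above their E0 groups, by 507 bp on average (exact permutation p = 0.025, adjusted 0.417; under 0.05 in 6 of 11 fits with 1 library left out and at most 0.08). In the shortened lists the difference was 319 bp (exact permutation p = 0.23), since shRNA-Ctrl E1 replicates 1 and 3 then had no peak there.

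The other 3 recurrent regions around Npas4 gave no permutation p under 0.05. Centred 47 kb after the start, chr19:4942442-4943472 was called in 5 E1 and 3 E0 libraries (403 bp more at E1, exact permutation p = 0.075). At 34.2 kb before the start, chr19:5023656-5024756 was called in 5 E1 and 4 E0 libraries (367 bp more, exact permutation p = 0.2). The region 27.8 kb after the start, chr19:4961821-4962644, went the other way in the shortened lists, with calls in 2 E1 and 5 E0 libraries and 292 bp less at E1 (exact permutation p = 0.15). In the deposited lists it was called in 4 E1 and 5 E0 libraries and differed by -60.9 bp (exact permutation p = 0.71). The other 3 regions around Npas4, 325 to 463 bp wide, were called in 1 to 3 libraries. In order along the chromosome Npas4 lies between the genes Mrpl11 and Slc29a2, and which of these regions fall in a neighbouring gene was not determined, since no mm9 annotation was used.

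Over the whole 100 kb around Npas4, peaks covered 1451, 1217 and 2694 bp at E0 and 2436, 2888 and 4764 bp at E1 with shRNA-Ctrl. With shRNA-cFos they covered 472, 5726 and 2206 bp at E0 and 5581 and 5194 bp at E1. The ranges overlapped in both shRNA groups, and the highest value of all was that of shRNA-cFos E0 replicate 2. The difference between E1 and E0 was 2081 bp (exact permutation p = 0.085). Without that library it was 2812 bp (exact permutation p = 0.0333), and without shRNA-cFos E0 replicate 1, the lowest, it was 1498 bp (exact permutation p = 0.133). It was 1719 bp in the shortened lists (exact permutation p = 0.165), and relative to the length covered by each whole list 40.5 bp per Mb (exact permutation p = 0.16). Within 25 kb of the start it was 919 bp (exact permutation p = 0.065). For reference, 11.6% of 23259 windows of 100 kb with any peak were longer at E1 with an unadjusted p under 0.05.

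The number of peaks around Npas4 with shRNA-Ctrl was 4, 3 and 4 at E0 and 7, 6 and 7 at E1. With shRNA-cFos it was 1, 8 and 5 at E0 and 6 and 6 at E1. The shRNA-Ctrl groups did not overlap, while shRNA-cFos E0 spanned both E1 values. E1 had 2.17 more peaks on average (exact permutation p = 0.11; 7.24% of windows had more at an unadjusted p under 0.05), and 3 more without shRNA-cFos E0 replicate 2 (exact permutation p = 0.0167). E1 had 1.17 more in the shortened lists (exact permutation p = 0.34), and per 10000 peaks of each whole list 0.0747 more (exact permutation p = 0.835). Within 25 kb of the start the difference was 0.667 peaks (exact permutation p = 0.415). Subtracting the E1 effect of shRNA-Ctrl from that of shRNA-cFos gave -1.67 peaks (exact permutation p = 0.51; 3.02% of windows differed at an unadjusted p under 0.05). In the shortened lists this difference of effects was 1.67 peaks (exact permutation p = 0.48), the opposite direction. Leaving out shRNA-cFos E0 replicate 1, which had the single peak, gave -3.5 peaks (exact permutation p = 0.03).

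At Bdnf, E1 libraries had a greater length of chromatin covered by peaks, by an unadjusted test, while the number of peaks did not pass it. Over the 152 kb window peaks covered 3075, 5723 and 4283 bp at E0 and 11018, 9396 and 10231 bp at E1 with shRNA-Ctrl. With shRNA-cFos the window had 6007, 10634 and 5147 bp covered at E0 and 11223 and 9249 bp at E1. All 5 E1 libraries lay above 5 of the 6 E0 libraries, and the sixth, shRNA-cFos E0 replicate 2, lay within the E1 range. The same held for the number of peaks in the whole lists.

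With shRNA-Ctrl the mean at Bdnf was 4360 ± 1326 bp (SD, n = 3) at E0 and 10215 ± 811 bp (n = 3) at E1. With shRNA-cFos it was 7263 ± 2951 bp (n = 3) at E0 and 10236 ± 1396 bp (n = 2) at E1. E1 covered 4414 bp more than E0, a 1.76-fold ratio (exact permutation p = 0.015, adjusted over 15953 windows of 152 kb 0.351). Of these windows 10.8% were longer at E1 with an unadjusted p under 0.05, and 0.395% had a larger difference in bp than Bdnf. The median difference over windows was 387 bp, and this rank in bp was not scaled to the peak length that a window holds. In the shortened lists the Bdnf difference was 2683 bp (exact permutation p = 0.045). Of windows there, 12.6% were longer and 2.04% shorter at E1 at an unadjusted p under 0.05. Shortening made peak number equal, not covered length. The shortened lists covered 14.0, 16.2 and 19.3 Mb at E0 and 18.0, 17.5 and 21.9 Mb at E1 with shRNA-Ctrl. With shRNA-cFos they covered 18.6, 24.9 and 16.6 Mb at E0 and 23.5 and 22.3 Mb at E1. In the deposited lists, without the 2 lists that lack the added word, the Bdnf difference was 4004 bp (exact permutation p = 0.075). Relative to the length covered by each whole list it was 63.5 bp per Mb (exact permutation p = 0.09). Without shRNA-cFos E1 replicate 1 it was 3920 bp (exact permutation p = 0.05). The part of list length in these values was not tested beyond that.

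Peaks at Bdnf numbered 6, 7 and 4 at E0 and 15, 6 and 7 at E1 with shRNA-Ctrl, and 8, 10 and 7 at E0 and 7 and 8 at E1 with shRNA-cFos. These ranges overlapped in both shRNA groups. The mean difference was 1.42 peaks (exact permutation p = 0.6; 6.95% of windows had more at an unadjusted p under 0.05), and in the shortened lists it was -0.667 peaks (exact permutation p = 0.42). The difference of E1 effects, shRNA-cFos minus shRNA-Ctrl, was -4.5 peaks (exact permutation p = 0.29; background 3.37% of windows). In covered length the corresponding difference of effects was -2881 bp (exact permutation p = 0.225), and 75.3 bp in the shortened lists (exact permutation p = 0.97).

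**Figure D2:**
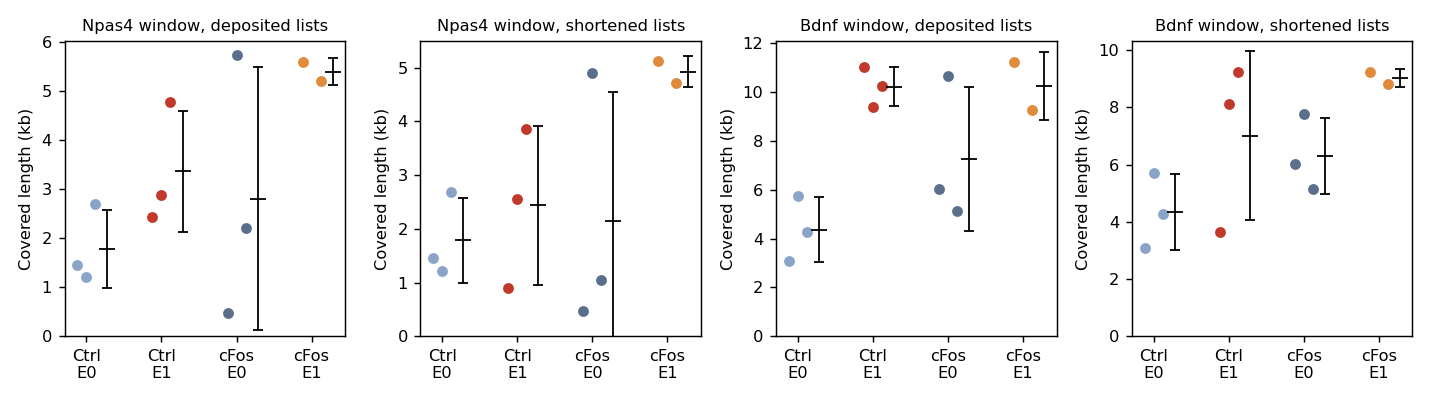
Length covered by peaks (vertical axis, kb, from 0) in the Npas4 and Bdnf windows, in the deposited lists and in lists of 25145 peaks. Each point is 1 library, and the horizontal mark and bar are the mean and SD of the group, with bars cut at 0. In the deposited lists the 5 E1 libraries at Bdnf sit between 9249 and 11223 bp, with 1 E0 library among them.

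Inside and before Bdnf, 4 regions were longer at E1 with an unadjusted p under 0.05, as were 7.62% of all regions. The one that differed most in presence lay 35.9 kb before the first Bdnf start (chr2:109478725-109479399, 675 bp). Peaks covered 277, 0 and 0 bp of it at E0 and 498, 561 and 675 bp at E1 in shRNA-Ctrl mice. In shRNA-cFos mice they covered 0, 0 and 0 bp at E0 and 540 and 436 bp at E1. All 5 E1 values exceeded all 6 E0 values, and the longest E0 list had no peak there. The share of all regions separated in this way by covered length was not counted, so whether it is unusual is not known.

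This upstream region was thus called in 5 of 5 E1 and 1 of 6 E0 libraries, and in 4 and 1 in the shortened lists, where shRNA-cFos E1 replicate 2 dropped out. In calls the exact permutation p was 0.02 (0.08 in the shortened lists; adjusted over all regions 0.57). It stayed under 0.05 in 3 of 11 fits with 1 library left out, those without a shRNA-Ctrl E0 library, and was 0.05 to 0.0667 (exact permutation) in the others. In covered length E1 exceeded E0 by 487 bp (533 against 46.2 bp), with an exact permutation p of 0.005, the smallest these groups allow (adjusted 0.33). In the shortened lists the difference was 378 bp (exact permutation p = 0.02). The E1 effect differed between the shRNA groups by 2.33 bp (exact permutation p = 1). In shRNA-cFos the region was called in both E1 and no E0 library, a pattern held by 1.96% of all regions, and 2.20% were called in every E1 and at most 1 E0 library.

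The first Bdnf region within the gene (chr2:109515280-109519120, 3841 bp, centred 2.2 kb after the first start) was called in all 11 libraries. With shRNA-Ctrl the covered lengths were 711, 2078 and 1760 bp at E0 and 2098, 3069 and 3639 bp at E1. With shRNA-cFos they were 1849, 3420 and 2190 bp at E0 and 3499 and 3084 bp at E1. The shRNA-Ctrl groups nearly met (2078 against 2098 bp), and those of shRNA-cFos overlapped. E1 exceeded E0 by 1112 bp (exact permutation p = 0.035, adjusted 0.515; under 0.05 in 5 of 11 fits with 1 library left out and at most 0.0875), and the values were the same in the shortened lists. All libraries covered the bin from 3 to 3.5 kb, whereas the bin from 1 to 1.5 kb was covered in 4 of 5 E1 and 1 of 6 E0 libraries (4.36% of all bins were covered in at least 4 E1 and at most 1 E0 library). The rank of the region's best peak within the shortened lists gave an exact permutation p of 0.635 (5.67% of regions called in all 11 shortened lists ranked higher at E1 and 9.20% lower at an unadjusted p under 0.05).

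The internal Bdnf region (chr2:109532148-109535615, 3468 bp, centred 18.9 kb after the first start) was also called in all 11 libraries and was wider at E1. Among shRNA-Ctrl libraries it spanned 1331, 1478 and 1967 covered bp at E0 and 3084, 3260 and 3257 bp at E1. Among shRNA-cFos libraries it spanned 2645, 3148 and 1560 bp at E0 and 3429 and 3165 bp at E1. The shRNA-Ctrl groups were separated by more than 1 kb, and in shRNA-cFos the E1 values lay just above the highest E0 value.

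The means at the internal region were 1592 ± 333 bp (SD, n = 3) and 3200 ± 101 bp (n = 3) in shRNA-Ctrl E0 and E1, and 2451 ± 812 bp (n = 3) and 3297 ± 187 bp (n = 2) in shRNA-cFos E0 and E1. The overall difference was 1227 bp (exact permutation p = 0.01, adjusted 0.346). In the shortened lists it was 742 bp (exact permutation p = 0.22), because the peaks of shRNA-Ctrl E1 replicate 1 there scored below those kept, and that library then had 0 bp. The difference of E1 effects (shRNA-cFos minus shRNA-Ctrl) was -762 bp (exact permutation p = 0.265).

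Peak edges show where the internal region differed. The leftmost peak began 18.4, 18.3 and 18.1 kb after the first start in the shRNA-Ctrl E0 libraries, and 17.3, 17.1 and 17.2 kb after it in shRNA-Ctrl E1. It began at 17.3, 17.3 and 18.3 kb in shRNA-cFos E0 and at 17.1 and 17.2 kb in shRNA-cFos E1. The bin from 17.5 to 18 kb was covered in 5 of 5 E1 libraries, in 0 of 3 shRNA-Ctrl E0 libraries and in 2 of 3 shRNA-cFos E0 libraries. Of all bins 2.94% were covered in all 5 E1 and at most 2 E0 libraries. In the shortened lists 3 E1 and 2 E0 libraries covered the bin from 17.5 to 18 kb. In the RefSeq spacing the third start (conventional promoter IV) lies 17.7 kb after the first. The Bdnf start used for the peaks is rounded to the kilobase and in another build, so on which side of that start the edges lay was not determined. The bin from 17 to 17.5 kb was covered in 4 of 5 E1 and 0 of 6 E0 libraries (1.88% of all bins were covered in at least 4 E1 and no E0 library). At 18.5 to 19 kb and 20 to 20.5 kb all 11 libraries were covered, and between them the bin from 19.5 to 20 kb was covered in 5 of 5 E1 and 2 of 6 E0 libraries. This is again a pattern among those 2.94% of all bins, and in the shortened lists 4 E1 libraries and 1 E0 library covered that bin.

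**Figure D3:**
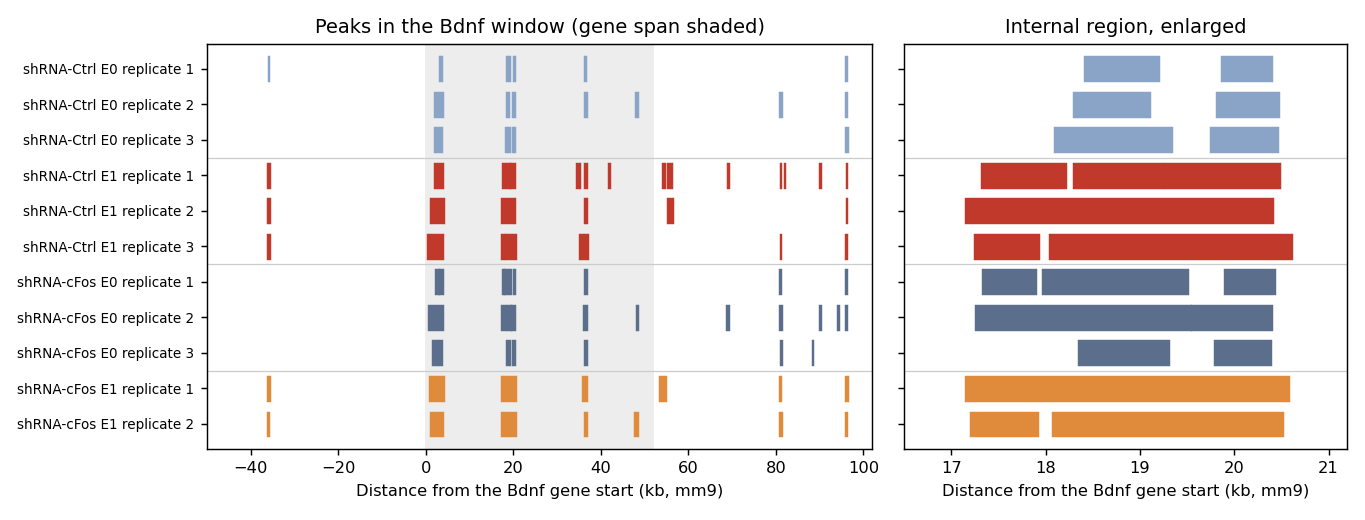
Peaks in the Bdnf window (left, gene span shaded) and in its internal region (right, enlarged) in each of the 11 libraries, with the distance in kb from the first Bdnf start (mm9) on the horizontal axis. In the enlarged panel the peaks of the 5 E1 libraries begin between 17.1 and 17.3 kb, and those of the 3 shRNA-Ctrl E0 libraries between 18.1 and 18.4 kb. Those of the 3 shRNA-cFos E0 libraries begin at 17.3, 17.3 and 18.3 kb.

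**Figure D4:**
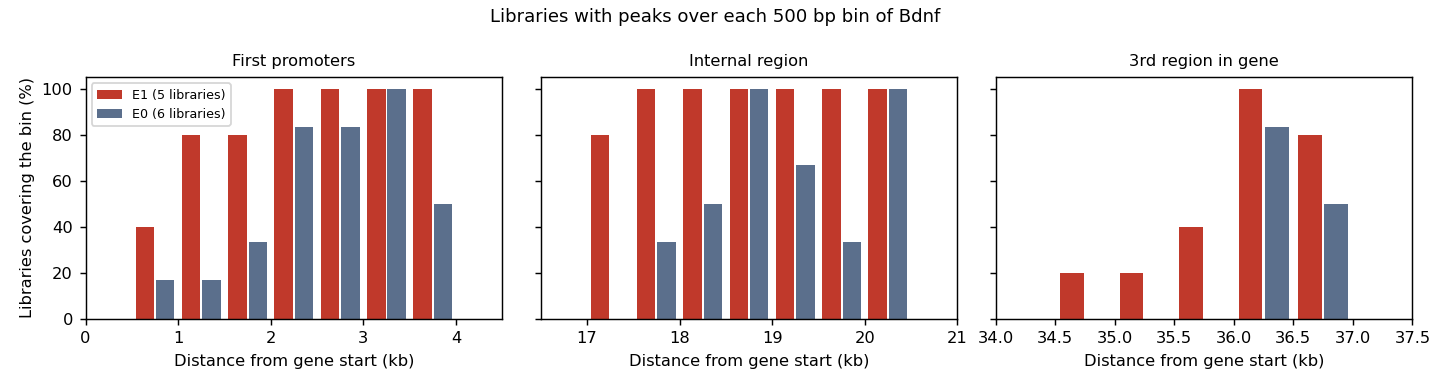
Share of libraries (vertical axis, %) whose peaks fill at least 50% of each 500 bp bin of Bdnf, for E1 (5 libraries) and E0 (6 libraries), by distance in kb from the first start. In the middle panel E1 and E0 are alike at 18.5 to 19 kb and at 20 to 20.5 kb and differ most at 17 to 17.5 kb, with 4 of 5 against 0 of 6 libraries. That last count rests on a few bp, since an E0 peak begun at 17.251 kb just missed the 50% limit and an E1 peak begun at 17.246 kb just met it.

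The third region within Bdnf (chr2:109549267-109552059, 2793 bp, centred 35.7 kb after the first start) was called in 5 E1 and 5 E0 libraries. Its covered length with shRNA-Ctrl was 355, 592 and 0 bp at E0 and 1466, 827 and 1937 bp at E1. With shRNA-cFos its covered length was 551, 826 and 568 bp at E0 and 1201 and 623 bp at E1. Only the shRNA-Ctrl groups were apart. The difference was 679 bp (exact permutation p = 0.03, adjusted 0.47; under 0.05 in 5 of 11 fits with 1 library left out and at most 0.075), and 532 bp in the shortened lists (exact permutation p = 0.06). Without the 2 lists that lack the added word it was 388 bp (exact permutation p = 0.125). Subtracting the shRNA-Ctrl effect of E1 from that of shRNA-cFos gave -831 bp (exact permutation p = 0.125).

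**Figure D5:**
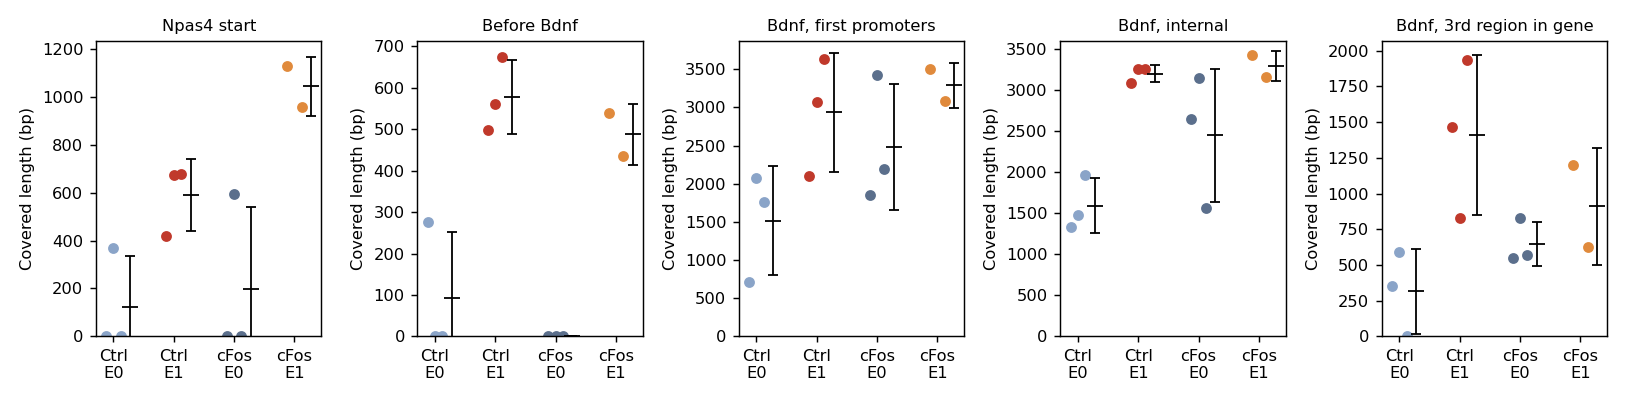
Length covered by peaks (vertical axis, bp, from 0) at the Npas4 start and at 4 Bdnf regions in the deposited lists. Each point is 1 library, and marks and bars are group means and SD, cut at 0. At the region before Bdnf the 5 E1 libraries lie between 436 and 675 bp, and the 6 E0 libraries at 0 bp apart from 1 with 277 bp.

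After the end of Bdnf, 2 recurrent regions gave no permutation p under 0.05 between E1 and E0. The region centred 81.1 kb after the first start (chr2:109595690-109596436) was called in 4 E1 and 4 E0 libraries, with a difference of -25.9 bp (exact permutation p = 0.82). In the shortened lists it was called in 2 E1 and 4 E0 libraries, with a difference of -215 bp (exact permutation p = 0.26). The region at 96.1 kb (chr2:109610803-109611397) was called in 5 E1 and 5 E0 libraries, with a difference of 38.3 bp (exact permutation p = 0.905). The other 9 regions of the window were called in 1 to 3 libraries. Of the 2 among them that lie within Bdnf, the one at 48 kb, near the last RefSeq start at 48.2 kb, was called in 1 E1 and 2 E0 libraries, and the one at 41.8 kb in 1 E1 library. In order along the chromosome Bdnf lies between Kif18a and Lin7c.

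Over all 24 regions, read by calls, 0 of 9 around Npas4 and 1 of 15 around Bdnf were called more often at E1 with an unadjusted permutation p under 0.05, and 0 less often. Of all regions in the genome 3.48% were called more often and 0.0241% less often by the same rule. Among regions called in 2 to 10 libraries 6.59% were called more often. Regions called in 1 library cannot pass this rule, and they are counted in the shares of all regions here, also those by covered length. By covered length, 3 of 9 Npas4 regions and 4 of 15 Bdnf regions were longer at E1 by that rule and 0 were shorter, against 7.62% and 0.134% of all regions. Of regions called in all 11 libraries 11.2% were longer by that rule, as were both of the Bdnf regions of that kind. By calls in the shortened lists the count was 0 around both genes, against 3.09% of regions. In the shortened lists the counts by covered length were 1 of 7 around Npas4 and 2 of 8 around Bdnf, against 7.85% of 59133 regions. No region in the genome passed an adjusted p of 0.05 by calls or by covered length. The smallest adjusted permutation p was 0.57 and 0.33 in the deposited lists and 0.467 and 0.241 in the shortened lists.

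By group, none of the 24 regions was called in every shRNA-Ctrl E1 and no shRNA-Ctrl E0 library, a pattern of 6.04% of all regions. None separated the shRNA groups within a state either. All 3 shRNA-cFos E0 and no shRNA-Ctrl E0 library called 1.11% of all regions, and both shRNA-cFos E1 and no shRNA-Ctrl E1 library called 0.534%. The reverse patterns were held by 0.0217% and 1.59%. Neither the calls at the Npas4 start nor those at the Bdnf regions therefore set shRNA-cFos libraries fully apart from shRNA-Ctrl libraries, and with 3 against 3 or 3 against 2 libraries no such contrast can reach an exact p under 0.1.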

How the data were processed

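ATAC-seq libraries of dentate gyrus were deposited as 11 MACS peak lists, 1 per mouse. Per the submitters' processing notes reads were aligned with Bowtie2 to mm9, and no label or header gives the filters, any transposase shift or the caller settings. Each peak's deposited score (50 to 3100, scale not stated) only set its rank in its own list and, as an alternative, a minimum of 100. Chromosomes 1 to 19 and X were used, leaving out 554 of 498212 peaks. The members, lists and tests were chosen with earlier results of these data known, and the 500 bp bins after seeing them.

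Regions named are those called in at least 6 libraries, those with an unadjusted p under 0.05 and those called in all of 1 group and none of another; the 2 sparse regions within Bdnf were named after their values were seen. Labels were permuted exactly (200 labellings, smallest p 0.005), and p-values were adjusted by Benjamini-Hochberg over all regions or windows. The calculations were tested on simulated lists. Pathway genes and tissue markers were not located, since no mm9 annotation was at hand. Deviations from group means correlated at -0.03 to 0.064 for same-numbered E0 and E1 libraries, and at -0.065 to 0.03 for differently numbered ones. With groups of 2 or 3 libraries this cannot settle whether the numbers mark pairs. Python 3.11.15, numpy 2.4.6, pandas 2.3.3 and matplotlib 3.10.9 were used.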

Additional observations from a re-analysis of the deposited data

How the results depend on the processing

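The Npas4 start and the region 35.9 kb before Bdnf were longer at E1 under all 16 alternatives each (607 to 755 bp and 378 to 533 bp), with an exact permutation p under 0.05 in 15 of them. The exception was the replicate block, whose smallest possible p is 0.0625, so it can pass nothing. Of the 16 alternatives 11 left out 1 library, and none set a region's length against that of the whole list. Merging peaks within 200 bp left both results unchanged, as did shortening the lists at the Npas4 start. The alternatives share most libraries, so their number is not a count of independent checks. By calls, the exact permutation p was under 0.05 in 1 of 17 alternatives at the Npas4 start. It was under 0.05 in 6 of 17 at the region before Bdnf. Same-numbered libraries correlated at -0.03 to 0.064 in their deviations. The block gave 3885 bp for covered length at Bdnf (exact permutation p = 0.125).

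Covered length at Bdnf kept its direction in all 18 alternatives and had a p over 0.05 under the block, relative to the whole list (63.5 bp per Mb) and without the 2 lists that lack the added word (4004 bp). Leaving out 1 library gave 3885 to 5257 bp, with p = 0.05 (exact permutation) without shRNA-cFos E1 replicate 1 (3920 bp). Around Npas4, leaving out 1 library gave 1498 to 2812 bp in covered length and 1.25 to 3 peaks. Over windows of 25 and 100 kb each side covered length differed by 919 and 2925 bp, and peak number by 0.667 and 3. Of the 18 alternatives of each, only that without shRNA-cFos E0 replicate 2 passed 0.05.

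The Bdnf peak difference turned negative in the shortened lists (-0.667), over the gene span alone (-0.333), per 10000 peaks (-0.462) and without those 2 lists (-0.25). The difference of peak effects between shRNA groups turned positive around Npas4 in the shortened lists (1.67), at scores of at least 100 (0.5) and per 10000 peaks (0.48), with -3.5 to 0 when 1 library was left out, and at Bdnf per 10000 peaks (0.196). The 1 Npas4 region with more calls at scores of at least 100 was the start (exact permutation p = 0.02). The 1 Bdnf region became 0 in the shortened lists, under the block and without those 2 lists, and 0 to 1 with 1 library left out, passing in 3 of 11 such fits; fewer labellings are then possible.

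The region 12 kb before Npas4 passed 0.05 in 2 of 16 alternatives, that 48.6 kb before it in 7, and the Bdnf regions at 2.2, 18.9 and 35.7 kb in 7, 14 and 6. Signs turned for chr19:4961821-4962644 (45.1 bp without the 2 lists, -168 to 23.6 bp with 1 library left out), chr2:109595690-109596436 (-75.5 to 73.3 bp with 1 left out) and chr2:109610803-109611397 (-47.2 bp under the block, -47.2 to 87.8 bp with 1 left out). The causes were not tested. Unknown read depth limits every comparison, since deeper libraries can give longer lists and wider peaks.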
